A study of Mus musculus with 8 samples.

Results

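The genes described here build or fill the nuclear lamina and the compact heterochromatin that lies against it in most cells. They are 10 genes: Lbr, Lmna, Lmnb1, Lmnb2, Cbx1, Cbx3, Cbx5, H1f0, Hist1h1c, and Casz1. They were chosen by name, as genes that bear on the inverted nuclei of mouse rods, and all 10 were found, each as 1 row, among the 21827 genes of the series. RNA from ICR mice was sequenced in 8 libraries, and the labels name no mutation and no treatment in any of them. The libraries were whole retina at embryonic days 15 (E15) and 18 (E18), and cells sorted as positive (Cd73PC) or negative (Cd73NC) for Cd73 at postnatal days 2, 5, and 8 (P2, P5, and P8). Cd73, encoded by Nt5e, is a surface enzyme of rod precursors and rods, and several retinas were pooled before each sort, so no sorted library is 1 animal. Both fractions of a stage were purified from the same pool, and each stage therefore gives 1 pair of libraries. There was 1 library per group, so no difference below could be set against a spread between replicates, and no p-value is given.

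In most nuclei, heterochromatin is held at the nuclear envelope by 2 tethers, the lamin B receptor (Lbr) and lamin A/C (Lmna). The rods of mice and of other nocturnal mammals turn this arrangement inside out during postnatal life: heterochromatin gathers in the centre of the nucleus and the active chromatin lies at its rim. Heterochromatin itself is marked by methylated lysine 9 of histone H3, is bound by HP1 proteins (Cbx1, Cbx3, and Cbx5), and is packed by linker histones of the H1 family (H1f0 and Hist1h1c among them). Casz1 is a zinc finger transcription factor of the retina that takes part in the organisation of the rod nucleus.

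Expression is given as FPKM, a count of fragments scaled to transcript length and to the mapped fragments of the library, which allows levels of different genes to be compared. Ratios are log2 ratios of FPKM + 1, and a gene is called higher or lower when this ratio is past 1.5-fold. Cufflinks gave a lower and an upper bound to each FPKM, which describe the estimate within a library and not the variation between animals. In 34 of the 80 values of these genes the deposited FPKM lay above its own upper bound, among them all 8 values of Cbx1, Cbx3, and H1f0. The bounds are therefore read only for whether those of a pair of libraries overlap.

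The sort was visible in the markers of these libraries. All 9 rod markers were higher in Cd73PC at each of the 3 stages, with summed FPKM of 3947, 8367, and 13855 in Cd73PC and 166, 1321, and 1163 in Cd73NC at P2, P5, and P8. Nt5e was at 97.3, 131, and 124 FPKM in Cd73PC and at 2.43, 31.4, and 9.38 in Cd73NC, so the P5 Cd73NC library held the most Nt5e of the Cd73NC libraries. Other cells differed too. The median FPKM of 9 proliferation markers was 61.8 at E15, 73.3 at E18, 20.2, 4.99, and 0.645 in Cd73PC, and 82.5, 20.1, and 2.44 in Cd73NC. Summed bipolar markers at P8 were at 613 FPKM in Cd73NC and 74.7 in Cd73PC, and none of the 5 was at 0 in either. At P2 all 5 were higher in Cd73PC (sum 11.9 FPKM, against 4.90 in Cd73NC). At P5, 2 were higher and 3 lower there (11.9 against 30.2). Summed markers of endothelial cells and pericytes were at 171, 168, and 91.0 FPKM in Cd73NC and at 36.2, 44.3, and 15.5 in Cd73PC. Of these 7 genes, 6, 4, and 7 were lower in Cd73PC by stage, and at P5 the other 3 were higher. Most of each Cd73NC sum was Kdr, at 139, 143, and 67.5 FPKM there and 29.7, 22.1, and 9.47 in Cd73PC. In Cd73NC at P2 only 3 of the 7 reached 1 FPKM, and Pecam1, Cdh5, and Tek were at 0.223, 0.166, and 0.047. These sums thus mainly follow Kdr and may not track vessel cells. Summed markers of Müller glia and astrocytes were at 1089.6, 1516, and 1227 FPKM in Cd73NC and at 481, 404, and 321 in Cd73PC, with 4, 6, and 6 of the 6 genes lower in Cd73PC by stage. Their sum was already 624 and 731 FPKM at E15 and E18. Dkk3 alone was at 358 and 346 FPKM there and at 489 in Cd73NC at P2. The paper used Dkk3-driven Cre to reach retinal progenitor cells, so the earlier sums may not be those of glia alone. All 4 microglia markers were higher in Cd73PC at P2 (sum 11.02 FPKM, against 1.91 in Cd73NC) and lower there at P5 and P8. The part of these cells in the ratios below was not tested. The depth of the libraries relative to E18 lay between 0.965 and 1.615, and their absolute depth is unknown, so no limit of detection can be given. In bulk libraries such as these, fewer cells of a type and less RNA per cell cannot be told apart.

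Hist1h1c and Casz1 were the only 2 of the 10 genes that were higher in Cd73PC than in Cd73NC past 1.5-fold, and they were so at all 3 stages (as deposited; after scaling of the libraries Lbr at P8 was past it too). Hist1h1c encodes the linker histone H1.2, which RefSeq now names H1f2, and its row spans chr13:23830676-23832236 of NCBI37/mm9. Its FPKM was 7.46 at E15 and 14.6 at E18, then 192, 182, and 179.8 in Cd73PC and 35.3, 79.0, and 21.7 in Cd73NC at P2, P5, and P8. The 3 Cd73PC libraries were the highest of the 8, with bounds that overlapped between neighbours, and no bounds overlapped from the third highest library downward. The log2 ratio between the fractions was 2.41, 1.19, and 2.99 in turn, or 5.32-fold, 2.29-fold, and 7.96-fold. Within Cd73PC the level hardly moved from P2 to P8 (log2 ratio −0.10, and 0.07 and 0.11 after scaling to the upper quartile or by median ratios), whereas in Cd73NC it was lower at P8 than at P2 by a log2 ratio of −0.68.

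Casz1, at chr4:148178501-148329001, was at 13.9 and 14.4 FPKM in whole retina at E15 and E18. It was at 44.2, 55.2, and 82.6 FPKM in Cd73PC and at 12.2, 25.0, and 8.02 in Cd73NC. Its 3 Cd73PC libraries were again the highest, here in the order of age and with no overlap of bounds, and of all neighbours in the order only E18 and E15 overlapped. The ratio between the fractions was 1.78, 1.11, and 3.21 on the log2 scale, or 3.43-fold, 2.16-fold, and 9.27-fold. Casz1 was the only one of the 10 genes called higher at P8 than at P2 in Cd73PC, with a log2 ratio of 0.89. For both genes the smallest ratio was that of P5, where Cd73NC had its highest level of each, and where that library also had more Nt5e and more rod marker RNA than at P2. The part of these markers in the smaller ratio was not tested.

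The sequences before the starts of these 2 genes, and of Lbr, are shown because the 2 genes move together between the fractions and Lbr moves the other way at P2 and P5. Each is the 250 bases upstream of a RefSeq start, written in the direction of the gene, on build GRCm38.p6, which is not the build of the expression tables. They are chr13:23738557-23738806 for Hist1h1c, chr4:148804142-148804391 and chr4:148889097-148889346 for the 2 starts of Casz1, all on the plus strand, and chr1:181842402-181842651 for Lbr on the minus strand. Capitals mark matches, on either strand, to the H1 box of linker histone genes (AAACACA), the CCAAT box, the core bound by the photoreceptor factor Crx (TAATCC), and the cell cycle homology region (TTTGAA).
Hist1h1c: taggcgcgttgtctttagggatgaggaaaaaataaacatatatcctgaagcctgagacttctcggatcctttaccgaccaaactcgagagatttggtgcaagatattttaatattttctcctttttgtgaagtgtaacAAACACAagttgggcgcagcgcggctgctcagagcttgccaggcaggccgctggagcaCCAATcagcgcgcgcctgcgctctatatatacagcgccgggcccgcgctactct
Casz1, start 1: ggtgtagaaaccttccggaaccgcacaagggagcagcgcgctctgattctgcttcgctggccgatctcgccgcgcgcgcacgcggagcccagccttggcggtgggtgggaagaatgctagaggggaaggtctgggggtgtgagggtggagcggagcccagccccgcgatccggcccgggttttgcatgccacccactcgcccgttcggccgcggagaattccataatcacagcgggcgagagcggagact
Casz1, start 2: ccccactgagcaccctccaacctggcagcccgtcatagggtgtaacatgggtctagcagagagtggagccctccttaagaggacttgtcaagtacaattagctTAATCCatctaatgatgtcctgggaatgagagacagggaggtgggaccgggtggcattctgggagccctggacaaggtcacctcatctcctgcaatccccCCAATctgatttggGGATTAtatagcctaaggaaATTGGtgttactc
Lbr: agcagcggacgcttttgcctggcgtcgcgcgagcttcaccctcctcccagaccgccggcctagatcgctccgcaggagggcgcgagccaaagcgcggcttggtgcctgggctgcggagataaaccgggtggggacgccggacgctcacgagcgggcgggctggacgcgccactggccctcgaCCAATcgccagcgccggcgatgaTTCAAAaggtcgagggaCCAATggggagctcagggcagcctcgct
The Hist1h1c window held the H1 box 112 to 106 bases before the start and a CCAAT box 54 to 50 bases before it. The window of the second Casz1 start held the Crx core at 2 places, 147 to 142 bases before the start and, on the minus strand, 33 to 28 bases before it, while the window of the first start held none of the motifs. The Lbr window held 2 CCAAT boxes, with the letters of the cell cycle homology region between them on the minus strand.

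Among all 32851 windows of this length, 6.25% held the H1 box, 33.8% the CCAAT box, 6.25% the Crx core, and 15.99% the cell cycle homology region. The Crx core at 2 or more places was found in 0.295% of windows, and the CCAAT box together with the cell cycle homology region in 5.55%. Of the 14 windows of the 10 genes (none for Lmnb1), 1 held the H1 box, 5 the CCAAT box, 2 the Crx core, and 1 the cell cycle homology region. The other window with the Crx core was that of Cbx1, whose log2 ratio of Cd73PC over Cd73NC was −0.69, −0.53, and −0.58 by stage. These motifs were kept from a wider search after the windows had been seen, so the matches describe the letters and carry no test. FPKM is given for the whole gene and does not separate the 2 starts of Casz1.

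**Figure D1:**
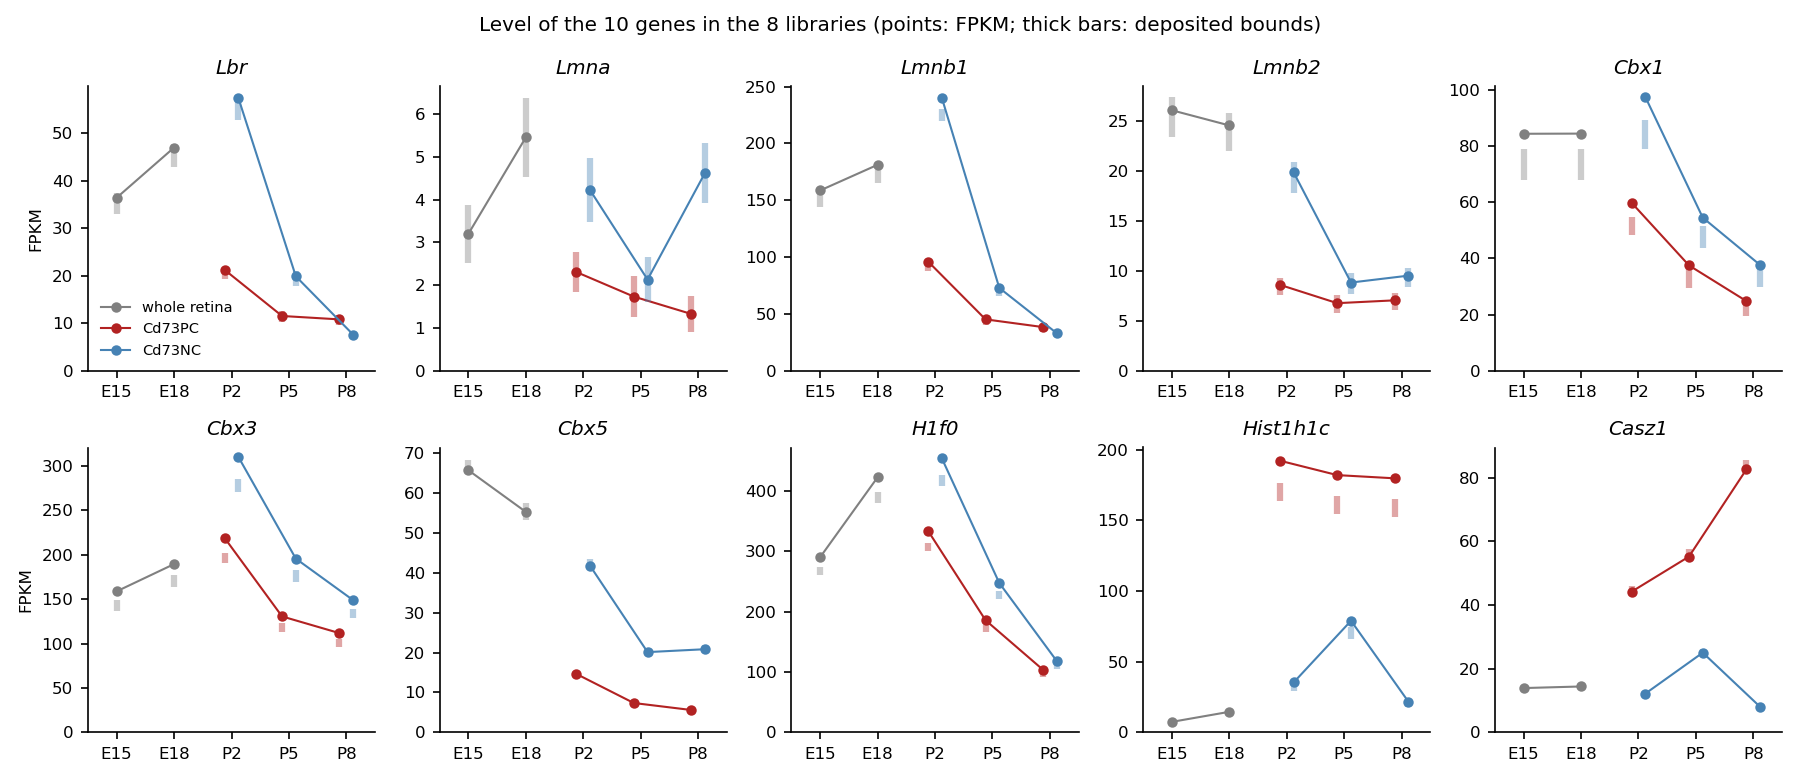
FPKM (vertical axis, from 0) of each of the 10 genes at E15 and E18 in whole retina and at P2, P5, and P8 in Cd73PC and Cd73NC; points are the deposited FPKM, 1 library each, and thick bars span the deposited bounds. Hist1h1c and Casz1 are highest in the 3 Cd73PC libraries, Cbx5 is lowest there, and the Lbr and Lmnb1 lines of the fractions cross between P5 and P8.

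The other 8 genes were lower in Cd73PC than in Cd73NC, or differed by less than 1.5-fold. Of the 10 genes, 2 were higher and 6 lower in Cd73PC at P2, 2 higher and 3 lower at P5, and 2 higher and 2 lower at P8. The 6 at P2 were Lbr, Lmna, Lmnb1, Lmnb2, Cbx1, and Cbx5, those at P5 were Lbr, Lmnb1, and Cbx5, and those at P8 were Lmna and Cbx5. Over all genes, 8.56%, 7.02%, and 7.54% were called higher by stage, and 14.4%, 15.5%, and 18.6% lower. Among genes at FPKM 1 or above in at least 1 library of the pair, which all 10 genes were, 14.5%, 12.3%, and 13.0% were higher and 25.0%, 27.0%, and 31.3% lower. Lower calls thus outnumbered higher ones across the transcriptome, and the median log2 ratio of such genes was −0.14, −0.18, and −0.23 by stage, against −0.68, −0.47, and −0.29 for the 10 genes. Quantile normalization moved these all-gene medians to −0.03, 0.03, and 0.05. Among genes at FPKM 1 or above, higher calls made up 31.3% of the calls at P5 and 29.4% at P8, and after quantile normalization 47.5% and 47.6%. At P5 the scalings to the upper quartile and by median ratios gave 41.6% and 40.9%.

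**Figure D2:**
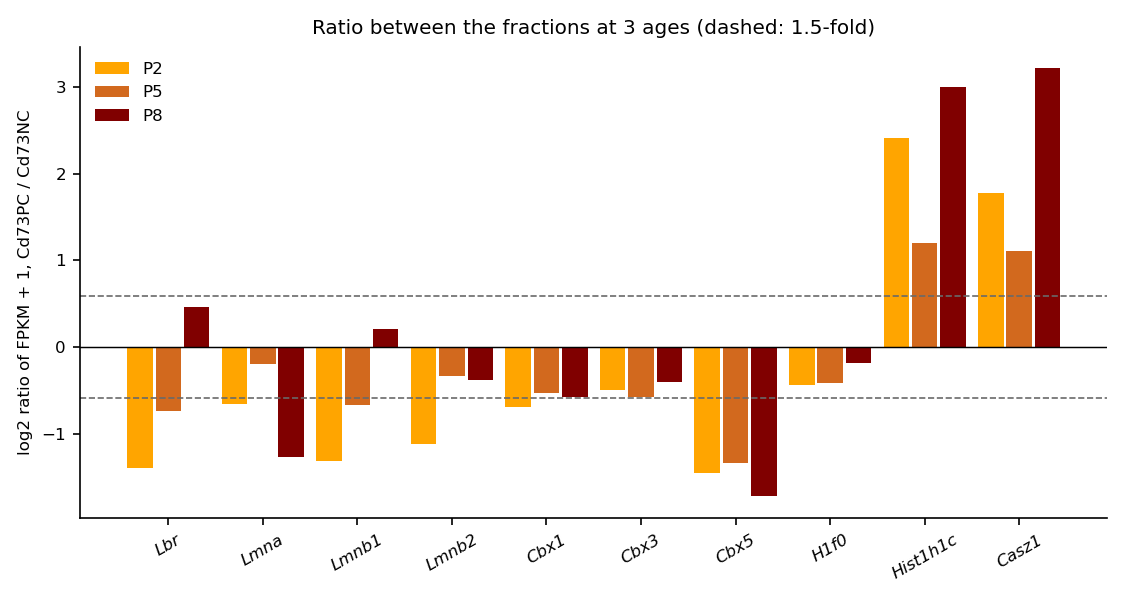
Log2 ratio of FPKM + 1 between Cd73PC and Cd73NC (vertical axis) for the 10 genes at P2, P5, and P8 (bars, 1 pair of libraries each); dashed lines mark 1.5-fold. Hist1h1c and Casz1 reach 2.99 and 3.21 at P8, Cbx5 lies between −1.34 and −1.72, and Lbr goes from −1.39 at P2 to 0.46 at P8.

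Lbr, an inner nuclear membrane protein with a sterol reductase domain, is the tether of early development. It was at 36.4 and 46.9 FPKM in whole retina at E15 and E18, at 21.2, 11.5, and 10.8 in Cd73PC, and at 57.3, 19.9, and 7.60 in Cd73NC. Its level was lower at each later stage in both fractions, from the highest of all 8 libraries to the lowest of all 8 in Cd73NC. Its log2 ratio between the fractions was −1.39, −0.74, and 0.46 by stage. Bounds did not overlap between the fractions at any of these stages, but they did between P5 and P8 in Cd73PC. The P8 ratio was within 1.5-fold as deposited and past it after each of the 3 scalings (0.63, 0.62, and 0.70), while the P5 ratio was within 1.5-fold after quantile normalization (−0.55). The row spans chr1:183745446-183772532.

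Lmna encodes lamins A and C, the tether that replaces Lbr in many differentiating cells, and it had the lowest level of the 10 genes. It was at 3.20 and 5.45 FPKM at E15 and E18, at 2.31, 1.73, and 1.33 in Cd73PC, and at 4.22, 2.13, and 4.62 in Cd73NC. Cd73PC at P8 was the lowest library. The bounds of all 7 pairs of neighbours in the order overlapped. In each library they reached 15.3% to 31.4% of their midpoint to either side of it. The log2 ratio began at −0.66, was −0.20 at P5, where bounds overlapped, and reached −1.27 at P8, or 2.41-fold lower in Cd73PC. After quantile normalization the P2 ratio was −0.44 and the P5 ratio changed sign, to 0.25. Lamins A and C are abundant in cells of blood vessel walls, and markers of endothelial cells and pericytes were higher in Cd73NC at P8 for all 7 genes of that list. Some of the 7 hardly differed, such as Pecam1, at 0.562 FPKM in Cd73NC and 0.548 in Cd73PC. By stage, the sum of the 7 in Cd73NC was 171, 168, and 91.0 FPKM, where Lmna was at 4.22, 2.13, and 4.62. All 6 markers of Müller glia and astrocytes, all 5 of bipolar cells, and all 4 of microglia were higher in Cd73NC at P8 as well. Markers of amacrine and horizontal cells, ganglion cells, and stroma and pigment epithelium were mixed. The part of any of these cells in the ratio was not tested. Lmna lies at chr3:88285071-88307254.

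The B-type lamins form the lamina of nearly all cells. Lmnb1, on chromosome 18, was at 159 and 181 FPKM at E15 and E18, at 96.2, 45.3, and 38.5 in Cd73PC, and at 240.0, 73.0, and 33.2 in Cd73NC. As with Lbr, P2 Cd73NC was the highest and P8 Cd73NC the lowest library, here with no overlap of bounds anywhere in the order. The log2 ratio was −1.31, −0.67, and 0.21 at P2, P5, and P8, and after scaling to the upper quartile or by median ratios the P5 ratio was within 1.5-fold (−0.52 and −0.53). Lmnb2, at chr10:80364108-80380990, was at 26.0 and 24.5 FPKM before birth, at 8.60, 6.77, and 7.05 in Cd73PC, and at 19.8, 8.83, and 9.52 in Cd73NC. Only P2 was past 1.5-fold for Lmnb2 (log2 ratio −1.12), and the ratios at P5 and P8 were −0.34 and −0.39.

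Summed over the 3 lamin genes, FPKM was 107, 53.8, and 46.9 in Cd73PC and 264, 83.9, and 47.3 in Cd73NC. Lmnb1 made up 70.1% to 90.9% of this sum in every library. Lmna made up 9.76% in Cd73NC at P8 and between 1.60% and 3.22% in each of the other 7 libraries, Cd73PC at P8 (2.83%) included.

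HP1 proteins bind methylated lysine 9 of histone H3, and of the 3 genes that encode them Cbx5 (HP1 alpha) differed most between the fractions. Cbx5, at chr15:103021977-103070247, was at 65.7 and 55.2 FPKM at E15 and E18, at 14.6, 7.37, and 5.62 in Cd73PC, and at 41.7, 20.1, and 20.8 in Cd73NC. The 3 Cd73PC libraries were the lowest of the 8, and of all neighbours in the order only P8 and P5 Cd73NC had overlapping bounds. Its log2 ratio was −1.45, −1.34, and −1.72, or 2.73-fold, 2.52-fold, and 3.30-fold lower in Cd73PC. It was past 1.5-fold at all 3 stages, and past 2-fold as well.

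Cbx1 (HP1 beta), at chr11:96650450-96669954, was at 84.3 and 84.4 FPKM before birth, at 59.8, 37.5, and 24.8 in Cd73PC, and at 97.4, 54.5, and 37.6 in Cd73NC. Only P2 was past 1.5-fold (log2 ratio −0.69), the P5 and P8 ratios of −0.53 and −0.58 lay just inside it, and with FPKM + 0.1 the P8 ratio of −0.60 lay just outside. A row named Gm11517, at 33.7 to 61.8 FPKM, shares 2825 bases with the span of Cbx1, and the kit named in the labels' protocol does not mark strand, so reads of the pair may not be separable. Cbx3 (HP1 gamma), at chr6:51420615-51433703, had the highest HP1 level in every library: 158.8 and 189 FPKM before birth, 219, 131, and 112 in Cd73PC, and 310.0, 196, and 149 in Cd73NC. Its ratios of −0.50, −0.58, and −0.41 were within 1.5-fold, although that of P5 was −0.74 after quantile normalization. Of the 32-base windows of its longest coding transcript, 87.6% also occur elsewhere in the NCBIM37 genome, against 0 to 11.2% for the other 9 genes, so its level depends on how reads with several matches were shared out and is uncertain.

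Among the HP1 genes the share of Cbx5 was 21.3% at E15 and 16.8% at E18. In Cd73PC it was 4.99%, 4.20%, and 3.95% at P2, P5, and P8, and in Cd73NC it was 9.29%, 7.44%, and 10.1%. Cbx3 made up 51.4% to 78.6%, with the highest share in Cd73PC at P8, and these shares carry the same uncertainty as its level.

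H1f0, at chr15:78858642-78860930, encodes H1.0, the replacement linker histone whose message has a poly(A) tail and does not depend on DNA replication. It was at 289.8 and 422 FPKM at E15 and E18, at 333, 186, and 104 in Cd73PC, and at 453, 247, and 118 in Cd73NC. It was lower at each later stage in both fractions and slightly lower in Cd73PC at each stage, with no overlap of bounds between any neighbours. Its ratios between the fractions were small, with log2 values of −0.44, −0.41, and −0.19, and that of P8 was 0.00 after scaling to the upper quartile.

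Hist1h1c and the other abundant linker histones also differed in their proportions. Of the summed FPKM of 10 linker histone genes, Hist1h1c made up 1.47% at E15 and 1.97% at E18. In Cd73PC its share by stage was 28.5%, 42.4%, and 57.8%, and in Cd73NC it was 4.30%, 17.8%, and 11.2%. The share of H1f0 was 49.4%, 43.3%, and 33.3% in Cd73PC, and 55.1%, 55.7%, and 60.9% in Cd73NC. H1fx, which encodes the linker histone H1.10, made up 40.9% at E15 and 5.66% in Cd73PC at P8. The sum itself was 675, 429, and 311 FPKM in Cd73PC and 823, 444, and 194 in Cd73NC, so the larger share of Hist1h1c in Cd73PC came with a level between 179.8 and 192 FPKM, while the sum was lower at each later stage. Most messages of the clustered H1 genes, to which Hist1h1c belongs, lack a poly(A) tail, and the RNA was selected for poly(A), so the levels of these genes are those of their polyadenylated messages. Of the 32-base windows of Hist1h1c, 11.2% also occur elsewhere in the genome.

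**Figure D3:**
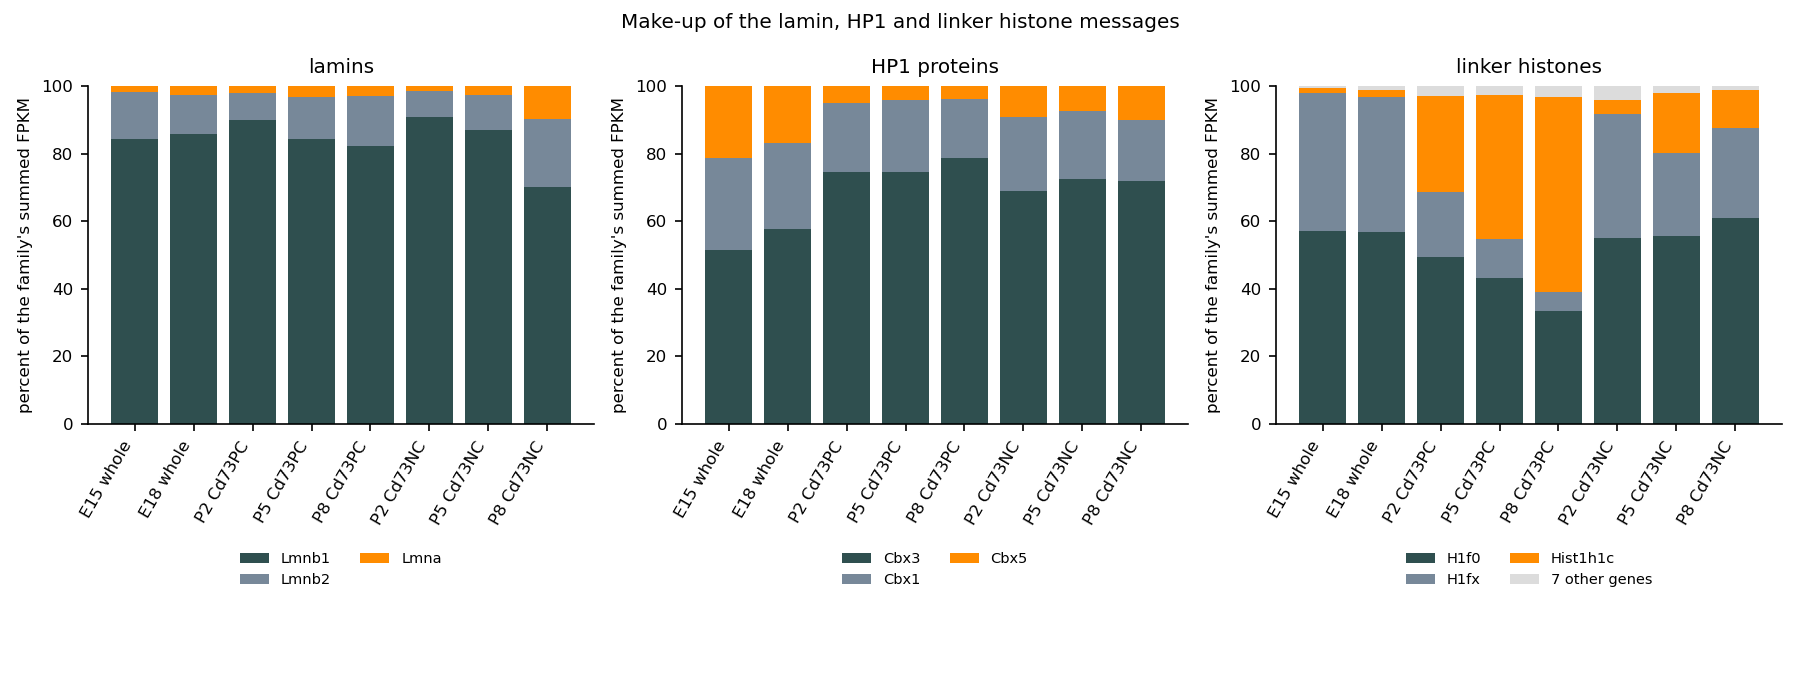
Percent of the summed FPKM of each family (vertical axis, 0 to 100) taken by each gene in the 8 libraries, for 3 lamin genes, 3 HP1 genes, and 10 linker histone genes. The share of Hist1h1c reaches 57.8% in Cd73PC at P8 against 11.2% in Cd73NC, the share of Cbx5 is 3.95% against 10.1%, and the share of Lmna stands out in Cd73NC at P8 (9.76%).

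Over age, most of the 10 genes were lower at P8 than at P2 in both fractions. In Cd73PC, 6 were lower (Lbr, Lmnb1, Cbx1, Cbx3, Cbx5, and H1f0) and 1 higher (Casz1), where 14.7% of all genes were lower and 6.40% higher, or 25.7% and 11.2% of genes at FPKM 1 or above. Among the latter genes, higher calls made up 30.4% of the calls, and 43.3%, 46.5%, and 48.5% after scaling to the upper quartile, by median ratios, and by quantiles. The counts of 6 and 1 among the 10 genes were the same under each of the 3 scalings. In Cd73NC, 8 were lower (all but Lmna and Casz1) and none higher (7 lower under median ratios, where Hist1h1c was at −0.56, and 9 with FPKM + 0.1, where Casz1 was at −0.60), where 14.3% of all genes were lower and 13.5% higher, or 24.0% and 21.6% of genes at FPKM 1 or above. The lowest log2 ratios of P8 over P2 in Cd73NC were those of Lmnb1 (−2.82) and Lbr (−2.76), against −1.30 and −0.91 in Cd73PC. H1f0 followed with −1.93 in Cd73NC and −1.67 in Cd73PC, and Cbx1 was nearly alike in the fractions (−1.35 and −1.23). Proliferation markers were also lower at P8 than at P2 in both fractions, and their part in these courses was not tested.

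Between E15 and E18, before the sorted stages, 4.61% of all genes were higher at E18 and 2.09% lower. Among genes at FPKM 1 or above these shares were 7.60% and 3.47%. Of the 10 genes, 2 were higher at E18 and none lower. They were Hist1h1c (log2 ratio 0.88) and Lmna (0.62), and the Lmna ratio was within 1.5-fold after each of the 3 scalings (0.58, 0.58, and 0.55). Higher calls made up 68.6% of the calls among genes at FPKM 1 or above in this comparison and 54.7% after quantile normalization. H1f0 was at a log2 ratio of 0.54, Lbr at 0.36, and Casz1 at 0.05, with overlapping bounds for Casz1.

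Each gene was also set against the others by its profile, the log2(FPKM + 1) of the 8 libraries about its own mean, with the root mean square difference as the measure of likeness. Over 9270 genes with a mean FPKM of at least 5, the nearest to Lbr were 6720463M24Rik (difference 0.10), Lmnb1 (0.13), and Usp1 (0.18). The nearest to Lmnb1 was also 6720463M24Rik (0.10), so the lamin B receptor and lamin B1 shared their nearest gene. Lbr and Lmnb1 were also the closest of the 45 pairs among the 10 genes, followed by Cbx1 and H1f0 (0.26). Hist1h1c and Casz1 had no profile as near: Egflam at 0.39 was the closest to Hist1h1c and Sgtb at 0.31 to Casz1. The measure is not scaled to how far a profile moves about its own mean, so differences are not fully comparable between genes. That root mean square was 1.66 for Hist1h1c and 1.07 for Casz1, and from 0.43 (Cbx3) to 1.15 (Cbx5) for the others. The nearest profiles were Phldb1 (0.11) for Cbx5, Msh6 (0.13) for Lmnb2, Rfc3 (0.10) for Cbx1, Pnrc2 (0.09) for Cbx3, Tmem97 (0.15) for H1f0, and Celf4 (0.09) for Lmna.

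The profile of Lbr stood at 1.39 above its mean in Cd73NC at P2 and 1.38 below it (−1.38) in Cd73NC at P8. The median profile of the 9 proliferation markers had its highest point in the same library, at 2.28, but its lowest in Cd73PC at P8, at −3.18, where Lbr was at −0.92 and Lmnb1 at −1.13. Between the fractions at P8, the log2 ratios of Lbr (0.46) and Lmnb1 (0.21) were both within 1.5-fold as deposited. Of the 9 proliferation markers 8 were lower in Cd73PC, and the other was Pcna, at 51.9 FPKM against 45.9. The median profile of the 9 rod markers was 4.56 in Cd73PC at P8, and Casz1 at 1.74 and Hist1h1c at 1.79 were also above their means there. Over P2, P5, and P8 in Cd73PC the rod median was 1.82, 3.53, and 4.56. Casz1 was at 0.86, 1.17, and 1.74 and Hist1h1c at 1.89, 1.81, and 1.79. In Cd73NC at P8 the rod median was above its mean, at 0.48, and Hist1h1c (−1.20) and Casz1 (−1.47) were below theirs.

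**Figure D4:**
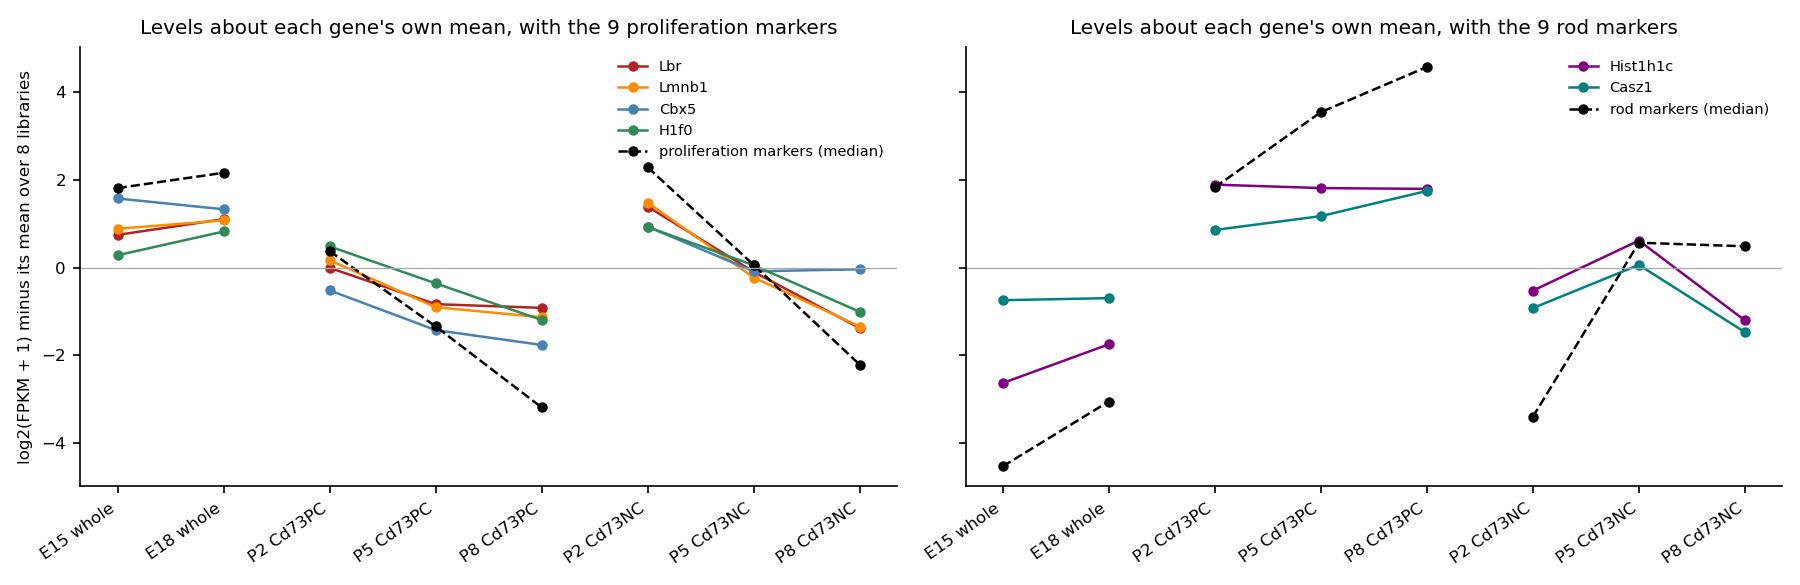
Log2(FPKM + 1) minus its mean over the 8 libraries (vertical axis) for Lbr, Lmnb1, Cbx5, and H1f0 with the median of 9 proliferation markers (left), and for Hist1h1c and Casz1 with the median of 9 rod markers (right); lines join libraries of 1 kind. In Cd73PC at P8 the proliferation markers are at −3.18, while Lbr is at −0.92 and Lmnb1 at −1.13.

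The 10 genes act with many others at the envelope and in heterochromatin, and 67 such genes were followed as 4 lists: inner nuclear membrane, nuclear bridge (LINC) and lamin processing genes (19), heterochromatin enzymes and partners (24), other linker histones (8), and histone variants, chaperones, and other Cbx genes (16). Of the 67, 8 were higher and 25 lower in Cd73PC at P2, 7 higher and 19 lower at P5, and 12 higher and 17 lower at P8. Their median log2 ratios were −0.22, −0.38, and −0.11, against −0.14, −0.18, and −0.23 for genes at FPKM 1 or above. As shares of the 67 this is 11.9%, 10.4%, and 17.9% higher and 37.3%, 28.4%, and 25.4% lower, beside 14.5%, 12.3%, and 13.0% higher and 25.0%, 27.0%, and 31.3% lower among genes at FPKM 1 or above. The shares at P5 were thus near those of other expressed genes. Of the 67 themselves, 63, 62, and 61 were at FPKM 1 or above in a library of the pair by stage. The balance at P8 turned with the scaling: 17 were higher and 10 lower after scaling to the upper quartile, 17 and 11 by median ratios, and 19 and 10 by quantiles. All genes at FPKM 1 or above moved toward higher calls as well. Higher calls made up 29.4% of their calls at P8 as deposited, and 39.3%, 38.4%, and 47.6% after these scalings in turn.

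At the nuclear envelope, 2, 2, and 4 of the 19 genes were higher, and 6, 7, and 3 lower, by stage. Icmt, the enzyme that methylates the prenylated end of lamins and other proteins, was the only one higher at all 3 stages. It was at 11.0 and 14.97 FPKM at E15 and E18, at 59.2, 98.8, and 162 in Cd73PC, and at 11.0, 25.0, and 27.6 in Cd73NC, with log2 ratios of 2.33, 1.94, and 2.51. Sun2, a nuclear bridge protein of the inner membrane, was lower at all 3 stages, at 13.9, 9.07, and 7.68 FPKM in Cd73PC against 35.4, 32.5, and 25.5 in Cd73NC. Emd, which encodes the lamin-binding protein emerin, was lower as well, by log2 ratios of −0.81, −0.59, and −0.69, but its P5 and P8 ratios were within 1.5-fold after each of the 3 scalings (−0.44 and −0.51 for the upper quartile, −0.45 and −0.52 for median ratios, −0.52 and −0.53 for quantiles). Nrm, which encodes the multipass membrane protein nurim, was lower at P2 and higher at P5 and P8: it was at 37.1, 38.0, and 46.9 FPKM in Cd73PC and at 61.1, 23.0, and 19.7 in Cd73NC.

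Of the 24 heterochromatin enzymes and partners, 3, 2, and 3 were higher and 8, 6, and 9 lower by stage. The 2 that were higher throughout, Suv39h2 and Setdb2, belong to the family of enzymes that methylate lysine 9 of histone H3, the mark that HP1 proteins bind. Suv39h2 was at 8.21 and 8.43 FPKM before birth, at 20.9, 20.04, and 21.0 in Cd73PC, and at 9.61, 6.10, and 2.82 in Cd73NC, so its ratio was 1.04, 1.57, and 2.52 on the log2 scale. Setdb2 was at 2.83 and 4.40 FPKM before birth, at 35.7, 23.7, and 18.6 in Cd73PC, and at 5.46, 7.85, and 4.85 in Cd73NC. The other enzymes of this kind in the list did not go the same way. Ehmt1 was lower at P5 (−0.74) and P8 (−0.60), Ehmt2 was lower at P8 (−0.76), and Suv39h1 and Setdb1 were within 1.5-fold at all 3 stages. The 4 that were lower throughout were Zfp57, a zinc finger protein that keeps imprinted regions methylated, and 3 genes linked to cell division: Cdca8, of the chromosomal passenger complex, Uhrf1, which maintains DNA methylation, and Chaf1b, of the chromatin assembly factor. At P8 Zfp57 was at 1.14 FPKM in Cd73PC and 9.58 in Cd73NC, while Uhrf1 (0.481 and 1.56) and Chaf1b (0.580 and 1.77) were near the value of 1 added before the ratio. After quantile normalization Chaf1b was within 1.5-fold at P5 (−0.50) and P8 (−0.38), and Uhrf1 at P8 (−0.39).

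Of the 8 other linker histones, 0, 1, and 2 were higher and 3, 2, and 1 lower by stage. By stage, 5, 5, and 3 of the 8 reached FPKM 1 in a library of the pair, and Hist1h1t and H1fnt were at 0 throughout. Only H1fx was past 1.5-fold at all 3 stages, and it was lower: 130.0, 49.4, and 17.6 FPKM in Cd73PC against 300.0, 108, and 51.9 in Cd73NC. Hist1h1d and Hist1h1e, neighbours of Hist1h1c in the histone cluster, reached at most 4.39 and 7.33 FPKM in any library, far below Hist1h1c in Cd73PC. At P8 both were higher in Cd73PC, as Hist1h1c was. Hist1h1d was at 3.31 against 0.504 FPKM (log2 ratio 1.52) and Hist1h1e at 5.93 against 1.27 (1.61). At P2 both were within 1.5-fold (0.27 and −0.10). Of the 16 histone variant, chaperone, and other Cbx genes, 3, 2, and 3 were higher and 8, 4, and 4 lower by stage. H2afy2, which encodes macroH2A2, a variant of silent chromatin, was lower throughout, at 43.0, 23.9, and 17.7 FPKM in Cd73PC against 89.5, 63.5, and 93.2 in Cd73NC. H2afz, which encodes H2A.Z, was lower by log2 ratios of −1.19, −0.73, and −0.73, and at P5 and P8 it was within 1.5-fold after scaling to the upper quartile (−0.57 and −0.55) or by median ratios (−0.58 and −0.56). H2afx, whose product marks broken DNA, began at −1.17, was −0.03 at P5 with overlapping bounds, and reached 0.71 at P8.

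**Figure D5:**
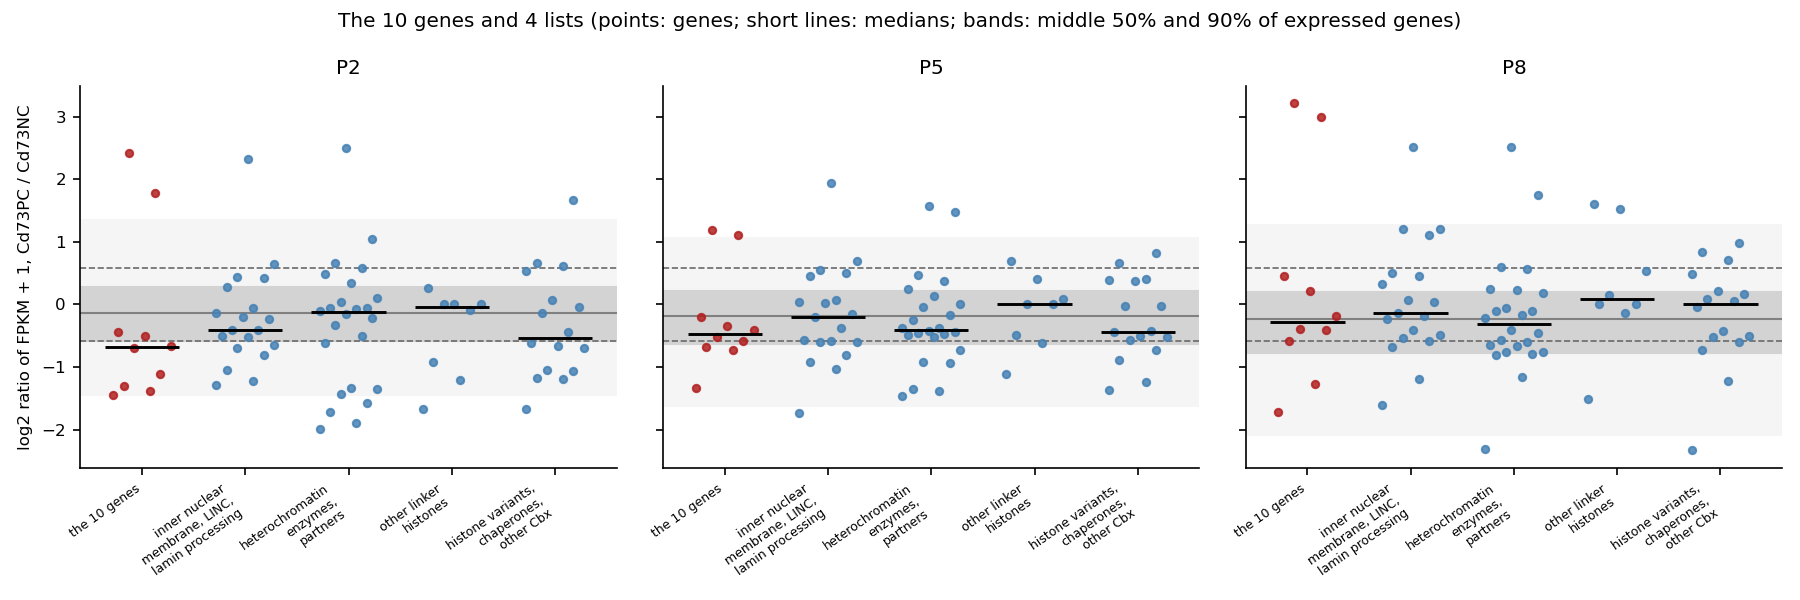
Log2 ratio of FPKM + 1 between Cd73PC and Cd73NC (vertical axis) for the 10 genes and the 4 lists at P2, P5, and P8; each point is a gene, short lines are medians, dashed lines mark 1.5-fold, and grey bands hold the middle 50% and 90% of genes at FPKM 1 or above. Hist1h1c lies above the wider band at all 3 stages, and Casz1 does as well.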

How the data were processed

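RNA from 8 libraries of ICR mouse retina was analysed, 1 per group: E15 and E18 whole retina, and both sorted fractions at P2, P5, and P8. Poly(A)-selected RNA was sequenced as short single-end reads. Per the labels, the authors' tools were CASAVA 1.8.2, bcl2fastq 1.8.4, TopHat2 2.0.8b, and Cufflinks 2.1.1 on NCBI37/mm9, and the deposited values are FPKM for 23021 rows per library, each with bounds and a status. Read counts were not used here, and relative depth was read from the steps between low FPKM values.

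Small RNA rows (797, by symbol) were left out, rows of 234 symbols with more than 1 row were summed, and 4 to 10 rows per library with a failed status were taken as missing. Ratios are log2 of FPKM + 1, called past 1.5-fold, the fold the authors used between fractions. Transcript windows of 32 bases were looked up in the NCBIM37 genome (GENCODE M1 transcripts, or the locus of H1f0), outside the gene and the 12000 bases on either side. Promoter windows and gene names came from RefSeq (GRCm38.p6). The 10 genes, the lists, and the markers were chosen with earlier results of these data known. Named list genes are those past 1.5-fold in 1 direction at all 3 stages, at most 4 per list and direction, and those past it in opposite directions. Gm11517, Hist1h1d, Hist1h1e, Pcna, Suv39h1, Setdb1, Ehmt1, and Ehmt2 were added after their values were seen. Alternatives were FPKM + 0.1, FPKM with nothing added, 3 scalings of the libraries (upper quartile, median ratio, quantile), a 2-fold threshold, bounds that do not overlap, FPKM of at least 1, and rows not summed. Scripts used Python 3.11.15, numpy 2.4.6, pandas 2.3.3, and matplotlib 3.10.9, and were tested on simulated data.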

Additional observations from a re-analysis of the deposited data

Results flagged for a closer look

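The results below are named because a pair of conditions moved in opposite directions. With 1 library per group, none of these differences was tested.

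Lbr was lower in Cd73PC than in Cd73NC at P2 (log2 ratio −1.39) and higher at P8 (0.46), and Lmnb1 went the same way (−1.31 and 0.21), although both P8 ratios were within 1.5-fold as deposited. Nrm, the nurim gene, was at −0.70 at P2 and 1.21 at P8, and H2afx at −1.17 and 0.71, past 1.5-fold at both stages. All 4 were lower at P8 than at P2 past 1.5-fold in Cd73NC: the FPKM of Nrm in Cd73NC was 61.1 at P2 and 19.7 at P8, and that of H2afx was 178 and 33.1.

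From P2 to P8, Lmna was at a log2 ratio of −0.51 in Cd73PC and 0.11 in Cd73NC, both within 1.5-fold. Casz1 was at 0.89 in Cd73PC and −0.55 in Cd73NC, of which only the first was past 1.5-fold.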

How the results depend on the processing

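No replicate could be left out, since each group held 1 library. No paired analysis was possible because the pair of fractions at each stage is 1 pair with no replicate, and the stages are different groups. Of 162 alternative counts, 144 stayed within 1.5 times the count given and 18 did not, and of 612 alternative ratios of single genes none with a call changed sign. Some of this agreement was fixed in advance. Each of the 10 genes was 1 row, so leaving rows unsummed could change none of their counts or ratios. All 10 were at FPKM 1 or above in every library, so that filter could not change their counts either. Scaling to the upper quartile, by median ratios, and by quantiles each gave 11 of the 67 listed genes higher at P5 (7 as deposited). At P8 they gave 10, 11, and 10 of the 67 lower (17 as deposited) and 17, 17, and 19 higher (12 as deposited). Among all genes at FPKM 1 or above, higher calls at P5 made up 41.6%, 40.9%, and 47.5% of the calls (31.3% as deposited). At P8 they made up 39.3%, 38.4%, and 47.6% (29.4% as deposited). Each of the 3 left 1 of the 10 genes higher at E18 than at E15. At 2-fold, none of the 10 genes was higher at E18 (0), 1 was lower at P5, 0 were higher at P8 than at P2 in Cd73PC, and 5 were lower in Cd73NC. At 2-fold, 4 of the 67 were higher at P2, 3 higher and 8 lower at P5, and 7 lower at P8. Shares of all genes at 2-fold were not computed, so these counts cannot be read against the transcriptome. With FPKM + 0.1 the P8 log2 ratios of Zfp57, Uhrf1, and Chaf1b were −2.96, −1.51, and −1.46. The cause was not tested. With FPKM + 0.1, Lmna in Cd73PC (−0.75) from P2 to P8 was past 1.5-fold, which made 7 of the 10 genes lower there. Without replicates, a difference of any size in these libraries may lie within the variation between animals.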
